A study of Mus musculus with 3 samples.

Results

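Group 2 innate lymphoid cells (ILC2s) were sought among cells sorted as viable and CD45+ from the mouse colon in acute colitis. Of 19109 kept cells in 3 single-cell libraries, 210 were chosen by their own transcripts. A chosen cell held at least 2 unique molecular identifiers (UMIs, each tagging 1 captured transcript) summed over Il13, Il5, Calca, Hs3st1, Nmur1 and Il17rb. It held no UMI of Cd3e, Cd3d or Cd3g, which mark T cells, none of Mcpt8, Cpa3 or Fcer1a, which mark mast cells and basophils, and at most 1 of Epcam, Krt8 and Chga, which mark epithelium. The levels of these genes in the chosen cells were therefore set by the choice and are given as description.

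All mice were C57/BL6J and drank 1.5% dextran sodium sulfate (DSS) for 7 days, then plain water for 3 days. The DATK32 library came from mice given the antibody DATK32, the MECA-367 library from mice given MECA-367, and the rat IgG library from mice given rat IgG as isotype control, each at 250 µg into the peritoneum 3 times a week. Ontamalimab is the drug that the labels pair with DATK32, and vedolizumab the one they pair with MECA-367. From general knowledge, DATK32 binds the integrin α4β7, as vedolizumab does, and MECA-367 binds its ligand MAdCAM-1, as ontamalimab does, so the groups are called here by antibody clone. The sources used here give neither age, sex nor the number of mice behind a library, and no untreated or colitis-free mice were analysed here. With 1 library per antibody no difference has a replicate check, and every interval is a 95% interval for counting error only.

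ILC2s are tissue-resident lymphocytes without an antigen receptor. They depend on the transcription factors GATA3 and RORα, respond to the epithelial alarmins IL-33, IL-25 and TSLP and to neuropeptides, and release IL-5, IL-13 and amphiregulin. IL-5 sustains eosinophils, IL-13 acts on goblet cells and smooth muscle, and amphiregulin acts in epithelial repair. Blocking α4β7 or MAdCAM-1 hinders the entry of lymphocytes into the gut wall, and the study set the antibodies against each other in that setting.

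Il5, Il13 and Il4, the genes of the type 2 cytokines, lie together on mouse chromosome 11. Across the libraries, Il13 and Il4 were highest in MECA-367 and Il5 in DATK32. Il4 spans chr11:53602982-53618669 on the minus strand (GRCm38, GENCODE), Il13 spans chr11:53631324-53634702 on the minus strand, and Il5 spans chr11:53720794-53725106 on the plus strand. The gap was 12.7 kb between Il4 and Il13 and 86.1 kb between Il13 and Il5. The GATA family of transcription factors recognises the core letters GATA, and Gata3 was frequent in the chosen cells. The 150 bases before each start are therefore shown 5′ to 3′ from RefSeq (GRCm38.p6), with the letters AGATA or their reverse complement TATCT in capitals.
Il5, chr11:53720644-53720793, plus strand: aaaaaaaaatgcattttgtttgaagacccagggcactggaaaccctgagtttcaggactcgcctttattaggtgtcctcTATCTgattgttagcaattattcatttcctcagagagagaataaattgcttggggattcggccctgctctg
Il13, chr11:53634703-53634852, minus strand: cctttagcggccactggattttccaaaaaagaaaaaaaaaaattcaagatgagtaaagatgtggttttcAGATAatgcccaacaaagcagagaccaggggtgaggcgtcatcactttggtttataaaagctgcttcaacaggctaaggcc
Il4, chr11:53618666-53618815, minus strand: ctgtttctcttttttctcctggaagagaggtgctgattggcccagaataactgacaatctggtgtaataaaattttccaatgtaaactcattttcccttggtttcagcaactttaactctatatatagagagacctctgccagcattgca
The 5 letters began 71 bases before the start of Il5 and 81 bases before that of Il13, and the Il4 window had none. Of 32851 promoter windows of this length, 5119 (15.6%) held the letters on either strand, so a match describes the sequence and does not mark a bound site.

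The deposited matrices held 8445 barcodes for DATK32, 8387 for MECA-367 and 10826 for rat IgG, and between 27846540 and 30359331 UMIs each. Cells below 500 UMIs or 200 detected genes, or above 10% mitochondrial UMIs, were dropped, and the median kept cell had 1524.5 UMIs in DATK32, 1824.5 in MECA-367 and 1469 in rat IgG. The chosen cells were shallower, with medians of 1283.5, 1176.5 and 835 UMIs in the DATK32, MECA-367 and rat IgG libraries and sums of 86765, 272900 and 61279 UMIs. Between 18 and 20 deposited barcodes occurred in both libraries of a pair, and none of these was a chosen cell.

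Chosen cells made up a larger share of the MECA-367 library than of either other library. They were 46 of 5852 kept cells in DATK32 (0.786%, exact interval 0.576 to 1.05%), 124 of 5890 in MECA-367 (2.11%, 1.75 to 2.50%) and 40 of 7367 in rat IgG (0.543%, 0.388 to 0.739%). The MECA-367 share was 3.88 times that of rat IgG (2.70 to 5.69), the DATK32 share was 1.45 times that of rat IgG (0.927 to 2.27), and the DATK32 share was 0.373 times that of MECA-367 (0.260 to 0.528). A difference is called here past the fold when it is at least 1.5 in either direction and the intervals of both libraries lie apart, which held for the 2 comparisons with MECA-367 and not for DATK32 against rat IgG. Both antibodies were set against the same rat IgG library. Although the cells were sorted as CD45+, many kept cells that were not chosen were epithelial or stromal by their transcripts. The epithelial ones numbered 2248 in DATK32, 1523 in MECA-367 and 2692 in rat IgG, and the stromal ones 1025, 1379 and 1432. A share of kept cells therefore also depends on how many such cells a library holds. T cells chosen by their Cd3 transcripts were also a larger share of MECA-367, at 8.41% in DATK32, 11.5% in MECA-367 and 6.24% in rat IgG, as were natural killer (NK) cells or ILC1s at 1.83%, 2.55% and 0.624%. As a share of the lymphocytes alone (chosen cells, T cells, NK cells or ILC1s, and ILC3s), the log2 ratio of MECA-367 over rat IgG was 0.88 in place of 1.96 and that of DATK32 over MECA-367 was -0.87 in place of -1.42, both still past the fold.

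**Figure D1:**
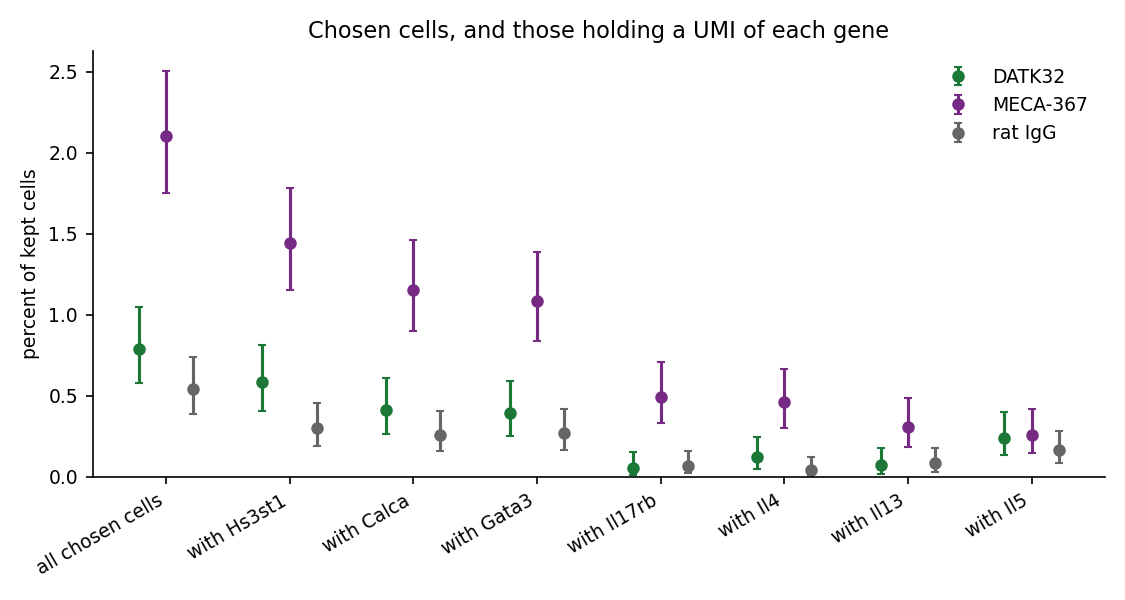
Percent of kept cells (y axis) that were chosen, and that were chosen and held a UMI of the gene named on the x axis, in DATK32, MECA-367 and rat IgG; points are shares and bars are exact 95% binomial intervals. Hs3st1, Calca and Gata3 follow the larger MECA-367 share of all chosen cells, whereas the Il5-positive share lies between 0.163% and 0.255% in all 3 libraries with overlapping bars. Hs3st1, Calca, Il17rb, Il13 and Il5 were used by the rule. Hs3st1 had a UMI in 6.66%, 6.01% and 5.96% of all kept cells of DATK32, MECA-367 and rat IgG.

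As a share of all kept cells, chosen cells with Calca were more frequent in MECA-367, and those with Il5 were not past the fold in any comparison. Calca, which encodes the neuropeptide CGRP, was detected in chosen cells that made up 0.410% of DATK32, 1.15% of MECA-367 and 0.258% of rat IgG kept cells, a ratio of 4.48 for MECA-367 over rat IgG (2.66 to 7.89). Il5-positive chosen cells made up 0.239%, 0.255% and 0.163% of the DATK32, MECA-367 and rat IgG libraries, a ratio of 1.56 for MECA-367 over rat IgG (0.683 to 3.66) and 0.939 for DATK32 over MECA-367 (0.420 to 2.09). The Il5 interval holds both no difference and a difference of more than 3-fold between MECA-367 and rat IgG, so a difference in the share of Il5-positive cells was not detectable at this depth. Il17rb, the IL-25 receptor, was detected in chosen cells making up 0.0513% of DATK32, 0.492% of MECA-367 and 0.0679% of rat IgG. Chosen cells with Hs3st1 were also more frequent in MECA-367. The rule used Calca, Il5, Il17rb and Hs3st1, so these shares of chosen cells are a description. Without the choice, Il17rb had a UMI in 0.496% of kept cells in DATK32, 0.968% in MECA-367 and 0.271% in rat IgG. Its CPM over all kept cells of MECA-367 was 3.34 times that of rat IgG (2.03 to 5.72). Calca had a UMI in 0.923%, 1.87% and 0.733% of the kept cells of DATK32, MECA-367 and rat IgG. Of all kept cells, 6.66% held Hs3st1 in DATK32, 6.01% in MECA-367 and 5.96% in rat IgG.

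Gata3, which the rule did not use, was detected in chosen cells of each library at about the same share. It had a UMI in 50.0% of the DATK32, 51.6% of the MECA-367 and 50.0% of the rat IgG chosen cells, against 3.78% of the other kept cells, which were deeper (median 1625 UMIs, against 1151.5 in chosen cells). Cells with stromal or epithelial transcripts that were not chosen gave 1.49% and 1.62%, at median depths of 1349.5 and 3557 UMIs. Near the threshold of the rule, Gata3 was detected in 58.2% of the 134 cells with 3 or more rule UMIs, in 38.2% of the 76 cells with exactly 2, and in 14.0% of the 314 cells with 1 rule UMI that were left out. The most rule UMIs in 1 cell were 38 in DATK32, 34 in MECA-367 and 19 in rat IgG.

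The chosen cells were mixed, and the markers of ILC2s were unevenly spread over them. Ptprc, the gene of CD45, had a UMI in 41.9% of the chosen cells, against 76.2% of T cells and 84.5% of NK cells or ILC1s. The median depths of these 3 classes were 1151.5, 1542 and 1178 UMIs. In 55 cells (16 DATK32, 29 MECA-367, 10 rat IgG) Hs3st1, a heparan sulfate sulfotransferase, was the only rule gene: Gata3 was detected in 18.2% of them and the collagen-binding stromal gene Dcn in 58.2%. Among the 155 cells with another rule gene, Gata3 was detected in 62.6%, Rora in 76.8%, the IL-7 receptor Il7r in 59.4% and Dcn in 18.1%. Hs3st1 also had a UMI in 5.51% of the other kept cells and in 10.9% of epithelial ones, whereas Il5 had one in 0.111% and Calca in 0.566% of the other kept cells.

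In all, 81 of the 210 chosen cells (38.6%) held 3 or more UMIs of 1 other lineage, 20 of them in DATK32, 41 in MECA-367 and 20 in rat IgG. Stromal transcripts were the most frequent, in 18, 26 and 15 cells, with all 5 stromal markers detected and a summed level of 6097, 6083 and 5565 CPM (UMIs of a gene per 1000000 UMIs summed over the chosen cells) in DATK32, MECA-367 and rat IgG. Neutrophil markers summed to 34.6 CPM in DATK32, where Cxcr2, Csf3r and Retnlg were at 0, 15449 CPM in MECA-367 and 4031 CPM in rat IgG, with all 5 detected in MECA-367 and rat IgG. Plasma cell markers summed to 34.6 CPM in DATK32 (only Jchain of 4 detected), 2638 CPM in MECA-367 and 4357 CPM in rat IgG. No doublet caller was run, and whether these are pairs of cells or free RNA was not tested. The 129 cells with no such lineage (26 DATK32, 83 MECA-367, 20 rat IgG) had a median of 875 UMIs, against 3046 in the 81 with one, and values in them are given beside the results that turn direction there. Within these 129 cells the stromal markers were at 27.7, 11.4 and 121 CPM and Gata3 at 1025, 1067 and 1394 CPM in DATK32, MECA-367 and rat IgG.

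Against the other kept cells, Gata3, Rora and other genes outside the rule were higher in the chosen cells of all 3 libraries. Of 252 genes with at least 30 counts in the chosen cells of every library, 62 (24.6%) were past the fold upward in all 3 libraries and 4 (1.59%) downward, a description, since the rule picked these cells out of the same libraries. Gata3 stood highest, at 542 CPM in DATK32, 491 in MECA-367 and 555 in rat IgG, against 22.3, 19.9 and 15.5 CPM in the other cells (log2 ratios of 4.63, 4.64 and 5.20). Rora, the gene of RORα, was at 1106, 861 and 1044 CPM, against 70.3, 113 and 75.4 CPM (log2 ratios of 3.99, 2.93 and 3.81). Ramp3, which turns the calcitonin receptor-like receptor into an adrenomedullin receptor, was at 795, 612 and 571 CPM, against 46.4, 67.4 and 43.8 CPM (log2 ratios of 4.12, 3.19 and 3.74). These genes were higher in the chosen cells of each library than in the other cells by at least 2.93 log2 units. Il7r had log2 ratios of 3.09, 2.60 and 3.72 in DATK32, MECA-367 and rat IgG. Ctla2a, Lmo4, Hilpda, Samsn1, Furin, Nfkb1 and Rgs2 were also among the highest, with ratios between 2.21 and 4.35. The other kept cells include many epithelial and stromal cells, so these ratios do not set the chosen cells apart from other lymphocytes. Ctla2a had a UMI in 46.2% of chosen cells, 28.9% of T cells and 64.0% of NK cells or ILC1s. For Ramp3 these shares were 49.5%, 30.8% and 4.62%, and for Lmo4 63.3%, 14.2% and 11.2%. Furin encodes a proprotein convertase, Nfkb1 an NF-κB subunit, Lmo4 a LIM-only cofactor and Hilpda a lipid droplet protein.

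**Figure D2:**
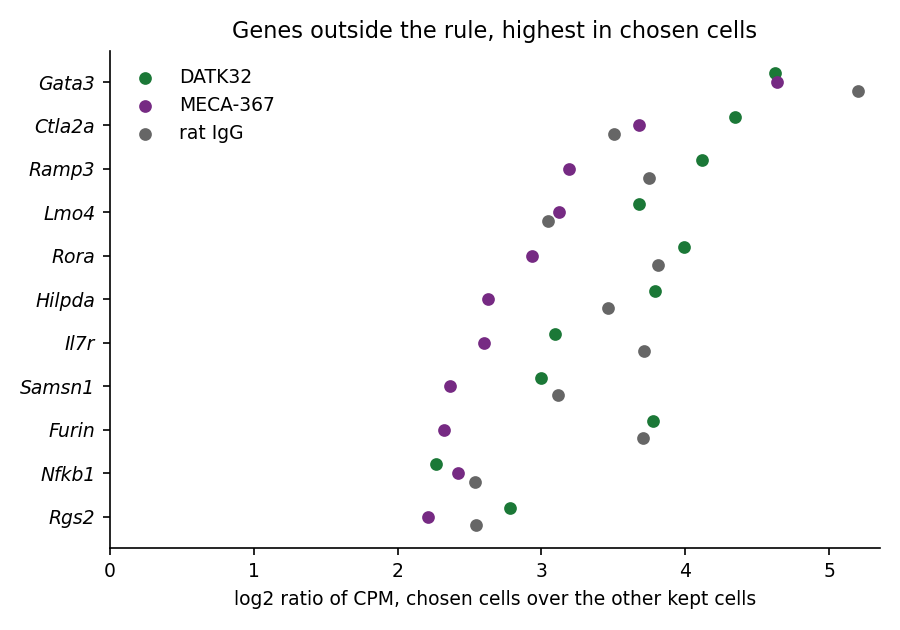
Log2 ratio of CPM in chosen cells over the other kept cells (x axis) for genes outside the rule that ranked among the highest (y axis), 1 point per library. All points lie above 2.2, and Gata3 leads with 4.63 in DATK32, 4.64 in MECA-367 and 5.20 in rat IgG.

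Set beside T cells and NK cells or ILC1s of the same libraries, the chosen cells differed in some of the listed products and factors, given as description because the rules that chose each class used some of these genes. Over all genes with a UMI in either class, 222 of 17417 (1.27%) were past the fold upward and 60 (0.344%) downward against T cells in all 3 libraries, and 40 of 14467 (0.276%) upward and 55 (0.380%) downward against NK cells or ILC1s. Of the 13 listed identity factors, Gata3 and Rora were past the fold upward in all 3 libraries against both other classes, and none was downward. Of 18 effector products, 8 were higher and 1 lower than in T cells in all 3 libraries, and 5 were higher and 1 lower than in NK cells or ILC1s. The 5 were Il5, Calca, Areg, Csf2 and Ccl1, and those higher than in T cells were the same 5 with Il4, Il13 and Il2; Il5, Il13 and Calca had been used by the rule. Of 10 NK and ILC1 genes, 9 were lower than in NK cells or ILC1s, and 5 of these had been used to choose those cells, whereas Gzma, Gzmb and Xcl1 were also lower than in T cells. The lower effector gene against both classes was Ccl5, a chemokine of cytotoxic lymphocytes, at 288, 597 and 522 CPM in the chosen cells of DATK32, MECA-367 and rat IgG, against 2294, 3433 and 1707 CPM in T cells. Areg, which encodes amphiregulin, was at 1256, 502 and 865 CPM in the chosen cells, against 99, 121 and 119 CPM in T cells. Among cytokine and alarmin receptors, Il1rl1 (the IL-33 receptor), Il17rb and Il2ra were higher than in T cells in all 3 libraries, and of these Il17rb had been used by the rule. Against NK cells or ILC1s, 0 of the 20 listed receptors were higher and 2 were lower. Of 22 surface and signalling genes, 3 were higher and 7 lower than in T cells, and 1 higher and 4 lower than in NK cells or ILC1s. Of 17 costimulatory genes, 0 were higher than in either class, with 3 lower than in T cells and 1 lower than in NK cells or ILC1s. The ILC3 genes Il17a, Il17f and Il23r had no UMI in any chosen cell, and Il22 had 2 in DATK32.

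Il5 UMIs were most numerous in the DATK32 library. Chosen cells held 152 Il5 UMIs in DATK32, 46 in MECA-367 and 45 in rat IgG, or 1752, 169 and 734 CPM. As a description, since the rule used Il5, the level in chosen cells was highest in DATK32 and lowest in MECA-367. The log2 ratio was 1.23 for DATK32 over rat IgG, -2.12 for MECA-367 over rat IgG and 3.36 for DATK32 over MECA-367. Because the rule used Il5 and MECA-367 has more chosen cells without it, the same gene was also counted over all kept cells, which needs no choice of cells. There were 184 Il5 UMIs in 23 DATK32 cells, 51 in 19 MECA-367 cells and 63 in 20 rat IgG cells. Over all kept cells DATK32 had 3.03 times the Il5 CPM of rat IgG (2.27 to 4.10) and 3.80 times that of MECA-367 (2.77 to 5.28), and MECA-367 had 0.799 times that of rat IgG (0.541 to 1.17), which was not past the fold. The lower Il5 level of MECA-367 against rat IgG was thus seen only in values that the rule had used, whereas the higher level of DATK32 against both other libraries was also past the fold over all kept cells. Chosen cells held 82.6% of all Il5 UMIs in DATK32, 90.2% in MECA-367 and 71.4% in rat IgG.

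Most Il5-positive cells of MECA-367 held a single UMI. Over all kept cells, a positive cell had a median of 4 Il5 UMIs in DATK32, 1 in MECA-367 and 2.5 in rat IgG, and 7 of 23, 13 of 19 and 7 of 20 positive cells held 1 UMI. The rule admits a cell with 1 Il5 UMI only when it holds another rule gene, so the values of chosen cells are a description. A positive chosen cell had a median of 5 Il5 UMIs in DATK32 (range 1 to 37), 1 in MECA-367 (1 to 11) and 3 in rat IgG (1 to 14). Of the positive cells, 2 of 14 in DATK32, 10 of 15 in MECA-367 and 3 of 12 in rat IgG held a single UMI. The ranges overlapped, and these UMIs come from few cells, so the counting intervals are too narrow for the spread between cells. The highest cell gave 24.3% of the Il5 UMIs in DATK32, 23.9% in MECA-367 and 31.1% in rat IgG, and leaving it out of each library kept all 3 directions. With every chosen cell thinned to 500 UMIs, Il5 was detected in 23.9% of them in DATK32, 4.03% in MECA-367 and 17.5% in rat IgG, against 30.4%, 12.1% and 30.0% unthinned. In the 129 cells without another lineage there were 145, 33 and 35 Il5 UMIs in DATK32, MECA-367 and rat IgG, at 4016, 375 and 2122 CPM.

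**Figure D3:**
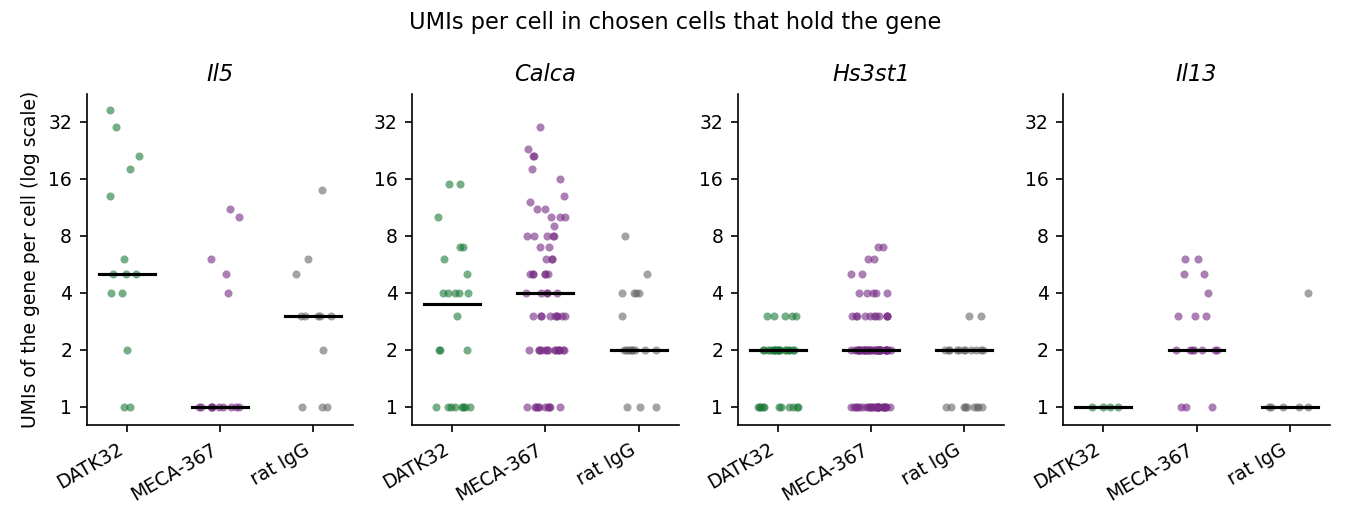
UMIs per cell (log2-scaled y axis) of Il5, Calca, Hs3st1 and Il13 in chosen cells that held the gene, 1 point per cell, shifted sideways at random for view, for DATK32, MECA-367 and rat IgG, with a line at the median. The highest Il5 cell held 37 UMIs in DATK32, 11 in MECA-367 and 14 in rat IgG, and for Calca the highest cells held 15, 30 and 8.

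Calca, Il4 and Il13 did not share the order of Il5. Chosen cells held 102 Calca UMIs in DATK32, 402 in MECA-367 and 53 in rat IgG, or 1176, 1473 and 865 CPM. As a description, since the rule used Calca, MECA-367 over rat IgG was past the fold there (log2 ratio of 0.74). Over all kept cells the Calca CPM of MECA-367 was 5.07 times that of rat IgG (4.08 to 6.37), and that of DATK32 was 0.303 times that of MECA-367 (0.250 to 0.365). Calca was therefore highest in MECA-367 over all kept cells. The level in chosen cells was also highest there, with a smaller ratio, but the rule had used Calca, so it is not a second check. Il13 had 4 UMIs in DATK32, 52 in MECA-367 and 9 in rat IgG, or 46.1, 191 and 147 CPM. In chosen cells, a description since the rule used Il13, only DATK32 against MECA-367 was past the fold (log2 ratio of -1.75). Over all kept cells the Il13 CPM of MECA-367 was 3.77 times that of rat IgG (2.33 to 6.33). That of DATK32 was 0.175 times that of MECA-367 (0.0919 to 0.311), and both were past the fold. For Hs3st1, MECA-367 over rat IgG was 0.963 over all kept cells (0.852 to 1.09). Il4, which the rule did not use, had 12, 94 and 4 UMIs in the chosen cells of DATK32, MECA-367 and rat IgG, or 138, 344 and 65.3 CPM. Its log2 ratio was 2.09 for MECA-367 over rat IgG and -1.22 for DATK32 over MECA-367. Over all kept cells the Il4 CPM of MECA-367 was 6.21 times that of rat IgG (4.12 to 9.70). Il4, Il13 and Calca were thus highest in MECA-367, and Il5 in DATK32.

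Some of the chosen cells of MECA-367 held UMIs of genes listed as basophil or mast cell markers, mostly Hdc. Most of the Il4 and Il13 UMIs of its chosen cells lay in these cells. Ms4a2, Gata2, Hdc or Cd200r3, the 4 listed markers of basophils or mast cells not used by the rule, had a UMI in 1 chosen cell of DATK32, 30 of MECA-367 and 7 of rat IgG. Hdc, the enzyme that makes histamine, was the most frequent, and without it the counts were 0, 8 and 3 cells. Hdc was widespread: chosen cells held 213 of the 4414 Hdc UMIs of MECA-367 kept cells (4.83%), and 4.97% of T cells had a UMI. By Mcpt8, Cpa3 and Fcer1a, 2 MECA-367 cells were counted as mast cells or basophils. That class was limited to cells with fewer than 2 rule UMIs, so its count cannot bear on the chosen cells. Whether the chosen cells with a marker were basophils or mast cells was not tested. The summed level of all 7 markers was 127 CPM in DATK32, 817 CPM in MECA-367 and 277 CPM in rat IgG, with Mcpt8, Cpa3 and Fcer1a at 0 by the rule. The 30 MECA-367 cells with a marker were deeper (median 2741.5 UMIs) than the 94 without (median 1140). Il4 had 75 UMIs in the 30 cells with a marker and 19 in the 94 without, and 76 UMIs in MECA-367 kept cells that were not chosen. Il13 had 35 and 17 UMIs, with 32 outside the chosen cells. Ccl3 had 732 and 1, Ccl4 1052 and 37, and Il6 121 and 13. Gata3 was detected in 23.3% of the cells with a marker and in 60.6% of those without, Rora in 36.7% and 79.8%, and Il7r in 26.7% and 59.6%, so the deeper group had the lower share for each of the 3 genes. In rat IgG, all 42 Ccl3 and all 32 Ccl4 UMIs lay in its 7 cells with a marker. Of the 28 cells with Il13 in the 3 libraries, 46.4% held Hdc, 42.9% Il4 and 17.9% Calca.

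**Figure D4:**
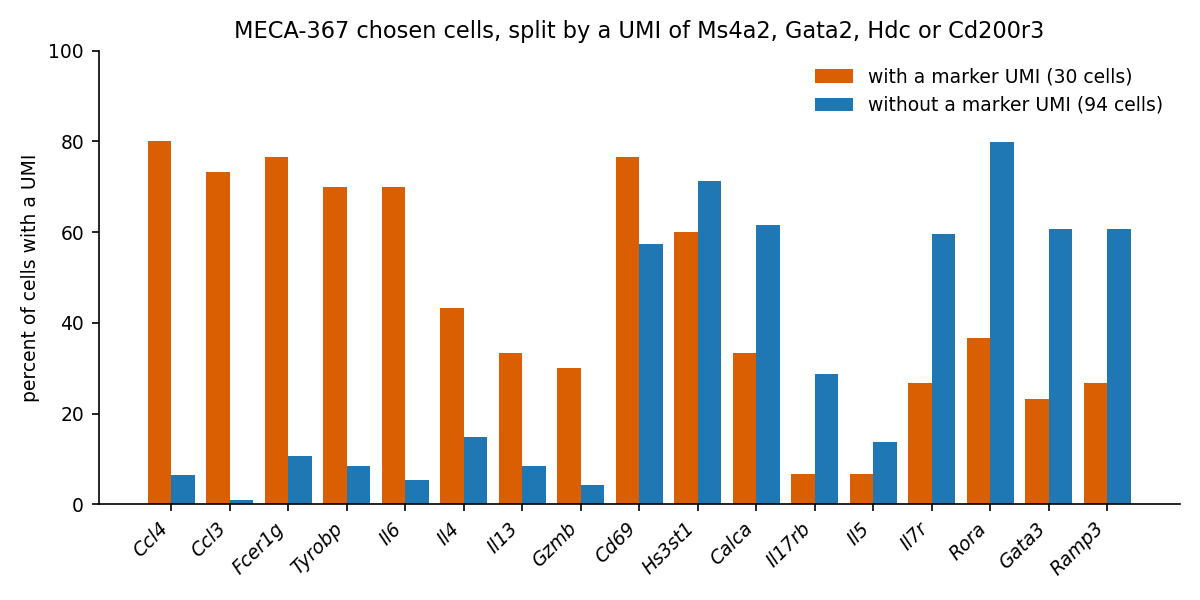
Percent of MECA-367 chosen cells with a UMI of each gene (y axis), in the 30 cells with and the 94 cells without a UMI of Ms4a2, Gata2, Hdc or Cd200r3. Ccl4 was detected in 80.0% and 6.38%, Il4 in 43.3% and 14.9%, Calca in 33.3% and 61.7%, and Gata3 in 23.3% and 60.6%; the depths of the groups differ and no interval is drawn.

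Across all genes, DATK32 against rat IgG gave 56 genes higher (7.82%) and 21 lower (2.93%) of 716 with at least 30 counts over both libraries. The median log2 ratio over all of them was 0.17. Of the effector list, 6 of 18 genes were measured, and Il5 was the only one past the fold, upward. No measured identity factor (4 of 13), cytokine receptor (7 of 20), neuropeptide or lipid receptor (1 of 19), costimulatory gene (3 of 17) or proliferation gene (3 of 14) was past the fold. Cd69, which retains lymphocytes in tissue and marks recent activation, was lower, with 18 UMIs in DATK32 and 36 in rat IgG (log2 ratio of -1.46), and with 17 and 22 UMIs in cells without another lineage (-1.48). It was the only one of 3 measured homing genes past the fold. Over all kept cells the Cd69 CPM of DATK32 was 0.838 times that of rat IgG (0.782 to 0.898), which was not past the fold. Among immediate-early genes 3 of 16 measured were higher (Atf3, Btg2 and Fos), 2 of 7 measured surface and signalling genes (Ly6a and Tyrobp) and 2 of 5 measured interferon-stimulated genes (Isg15 and Ifi27l2a). Fos was at 2363 CPM in DATK32 and 1077 CPM in rat IgG. In cells without another lineage, 0 of 7 measured immediate-early genes were higher and 1 was lower, with a list median of -0.37 in place of 0.37. Ifi27l2a had 158 UMIs in DATK32 and 70 in rat IgG, but 0 and 2 in cells without another lineage, and its log2 ratio turned to -0.83 with 3 rule UMIs required.

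The genes with the largest ratios of DATK32 over rat IgG followed the cells with another lineage. The 5 highest were Ces1d, Ccl11 (the eosinophil chemokine eotaxin), Il1rn, Fbln1 and Slfn2, with log2 ratios between 2.05 and 2.50. Ces1d, Ccl11 and Fbln1 had 31, 60 and 66 UMIs in DATK32 and 3, 7 and 10 in rat IgG, and none of the 3 had a UMI in cells without another lineage in either library. The 5 lowest were Ccl3, Slpi, Lcn2, Cd69 and Cxcl5. Ccl3, a chemokine for monocytes and lymphocytes, had 6 UMIs in DATK32 and 42 in rat IgG (log2 ratio of -3.12). Of the 96 Slpi UMIs of rat IgG, 90.6% lay in 1 cell. With 3 rule UMIs required, the Slpi ratio turned to 3.69 for DATK32 over rat IgG and 2.57 for MECA-367 over rat IgG, and without the highest cell of each library the MECA-367 ratio was 0.36. In cells without another lineage 11 genes were higher and 12 lower in DATK32 against rat IgG, of 264 measured.

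MECA-367 against rat IgG gave 101 genes higher (6.17%) and 43 lower (2.63%) of 1636 measured, with a median log2 ratio of 0.03. Of 11 measured effector genes, Il4 and Calca were higher and Il5 and Areg lower, and the rule had used Calca and Il5. Areg had 137 UMIs in MECA-367 and 53 in rat IgG, or 502 and 865 CPM (log2 ratio of -0.80). No measured identity factor (6 of 13), cytokine receptor (10 of 20), neuropeptide or lipid receptor (3 of 19), homing gene (13 of 28) or costimulatory gene (6 of 17) was past the fold. Among NK and ILC1 genes, the granzymes Gzma and Gzmb were the 2 measured of 10, and both were higher: Gzmb had 67 UMIs in MECA-367 and 2 in rat IgG, and 58.3% of the 48 Gzma UMIs of MECA-367 lay in 1 cell. Of the Gzmb UMIs of MECA-367, 59 lay in the 30 cells with a basophil or mast cell marker and 8 in the 94 without. Fcer1g, Tyrobp and Socs3 of 11 measured surface and signalling genes, 4 of 18 immediate-early genes and 1 of 9 interferon-stimulated genes (Isg15) were higher, and 1 of 4 proliferation genes (Tubb5) was lower. Without cells of another lineage these directions turned for Fcer1g (-1.42), Tyrobp (-0.28), Isg15 (-0.68) and Tubb5 (0.28), and 0 of 12 measured immediate-early genes were past the fold. Without cells holding a basophil or mast cell marker, Isg15 was at -0.078. Fcer1g was detected in 76.7% of the MECA-367 cells with a basophil or mast cell marker and in 10.6% of those without, and Tyrobp in 70.0% and 8.51%.

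The 5 highest genes of MECA-367 over rat IgG were Plod2, Hp, Ccl4, Serpinb6b and Plaur. Plod2, a collagen lysyl hydroxylase, had 57 UMIs in 28 MECA-367 cells and none in rat IgG, which is 4.27-fold higher when rat IgG is set at 3 counts. Of these 57 UMIs, 8 lay in cells without another lineage, too few for the gene to be measured there. Ccl4, a chemokine of the same family as Ccl3, had 1089 UMIs in MECA-367 and 32 in rat IgG (log2 ratio of 2.89). Hp, the gene of haptoglobin, had 131 UMIs in MECA-367, none of them in its cells without another lineage. Plaur had 72 UMIs in MECA-367 and 2 in rat IgG, with 26 and 1 in those cells, where it was not past the fold. Ccl4 and Serpinb6b stayed past the fold there. The 5 lowest were Cxcl5, Slpi, Il5, Sod3 and Bmp4, and apart from Il5 (33 UMIs in MECA-367 and 35 in rat IgG) they had at most 4 UMIs in either library in cells without another lineage. In those cells 19 genes were higher and 16 lower, of 481 measured.

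DATK32 against MECA-367 gave 77 genes higher (4.35%) and 72 lower (4.06%) of 1772 measured, with a median log2 ratio of 0.04. Scaling by the median ratio over genes shifted all log2 ratios of this comparison by -0.19 and gave 47 genes higher and 109 lower. Of 11 measured effector genes, Il5 and Areg were higher and Il13, Il4, Il6 and Ccl5 lower. Without cells holding a basophil or mast cell marker, the log2 ratio turned to 0.37 for Il4 and 1.37 for Ccl5. Areg was at 1256 CPM in DATK32 and 502 CPM in MECA-367 (log2 ratio of 1.33), and at 2465 and 1101 CPM in cells without another lineage. Over all kept cells the Areg CPM of DATK32 was 1.37 times that of MECA-367 (1.33 to 1.41), which was not past the fold. Il6 had 2 UMIs in DATK32 and 134 in MECA-367, of which 121 of the MECA-367 UMIs lay in cells with a basophil or mast cell marker. Cd69 had 18 UMIs in DATK32 and 194 in MECA-367 (log2 ratio of -1.71) and was the only one of 13 measured homing genes past the fold. This difference was not confined to the chosen cells. Over all kept cells the Cd69 CPM of DATK32 was 0.496 times that of MECA-367 (0.466 to 0.528), and that of MECA-367 was 1.69 times that of rat IgG (1.60 to 1.79). Tnfrsf9, the costimulatory receptor 4-1BB, was higher (23 UMIs in DATK32 and 25 in MECA-367, log2 ratio of 1.54), and Cd274, the gene of PD-L1, was lower (8 and 70 UMIs, -1.33), of 6 measured costimulatory genes. The Cd274 ratio turned to 0.44 without cells of another lineage and to 0.25 without cells holding a basophil or mast cell marker. None of the measured identity factors (6 of 13), cytokine receptors (11 of 20) or neuropeptide and lipid receptors (4 of 19) was past the fold. Fcer1g was the 1 lower of 13 surface genes. Both measured granzymes, 2 of 18 immediate-early genes (Ier3 and Zfp36) and Zbp1 of 9 interferon-stimulated genes were lower, and Ifi27l2a and 1 of 4 proliferation genes (H2afz) were higher. In cells without another lineage, 4 of 14 measured immediate-early genes were lower and none higher. With 3 rule UMIs required, Ifi27l2a turned to -1.04, and by the mean of per-cell CPM, H2afz turned to -0.19.

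Il5 also had the largest ratio in DATK32 over MECA-367 among the genes that could be named by the rule on detection and level. The other 4 highest were Fibin, S100a4, Lpl and Abi3bp, with log2 ratios between 1.83 and 2.65. Fibin, Lpl and Abi3bp had no UMI in cells without another lineage in either library, and S100a4 had 12 in DATK32 and 4 in MECA-367. The 5 lowest were Ccl3, Ccl4, Gzmb, Il6 and Hdc. All 5 were also lower in DATK32 in the kept cells that were not chosen. There they were at 57.3, 138, 55.5, 14.7 and 66.1 CPM in DATK32. In MECA-367 they were at 166, 330, 125, 33.5 and 232 CPM. Ccl3 had 6 UMIs in DATK32 and 733 in MECA-367, and Hdc had 11 and 213, all 11 in 1 DATK32 cell. Gzmb had no UMI in DATK32 and 67 in MECA-367, which is 7.10-fold lower when DATK32 is set at 3 counts. In cells without another lineage 32 genes were higher and 42 lower, of 557 measured.

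Apart from Cd69, no measured gene of the identity, receptor or homing lists was past the fold in any comparison of antibodies, within wide intervals. Gata3, Rora, Id2 and Ets1 differed by at most 0.37 log2 units in any comparison, and the Gata3 ratio was 0.976 for DATK32 over rat IgG (0.615 to 1.57) and 0.885 for MECA-367 over rat IgG (0.604 to 1.33). Itga4, the α4 chain bound together with β7 by DATK32, had 6 UMIs in DATK32, 41 in MECA-367 and 10 in rat IgG, or 69.2, 150 and 163 CPM. Itgb7, the β7 chain, had 11, 44 and 7 UMIs, or 127, 161 and 114 CPM. The Itga4 ratio of DATK32 over rat IgG was 0.424 (0.127 to 1.29) and the Itgb7 ratio was 1.11 (0.393 to 3.38), so differences within these intervals were not detectable at this depth. Itgae, the αE chain, had no UMI in any library, and Ccr9, a small-intestinal homing receptor, had 1 in MECA-367 alone. Il2ra, the α chain of the IL-2 receptor, was at 496, 363 and 228 CPM in DATK32, MECA-367 and rat IgG, and Il1rl1 at 288, 180 and 147 CPM, with neither past the fold. Nmur1, the neuromedin U receptor of the rule, had 1 UMI in all chosen cells together, in MECA-367. The prostaglandin D2 receptor Ptgdr2 and the cytokines Il9 and Il10 had none.

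**Figure D5:**
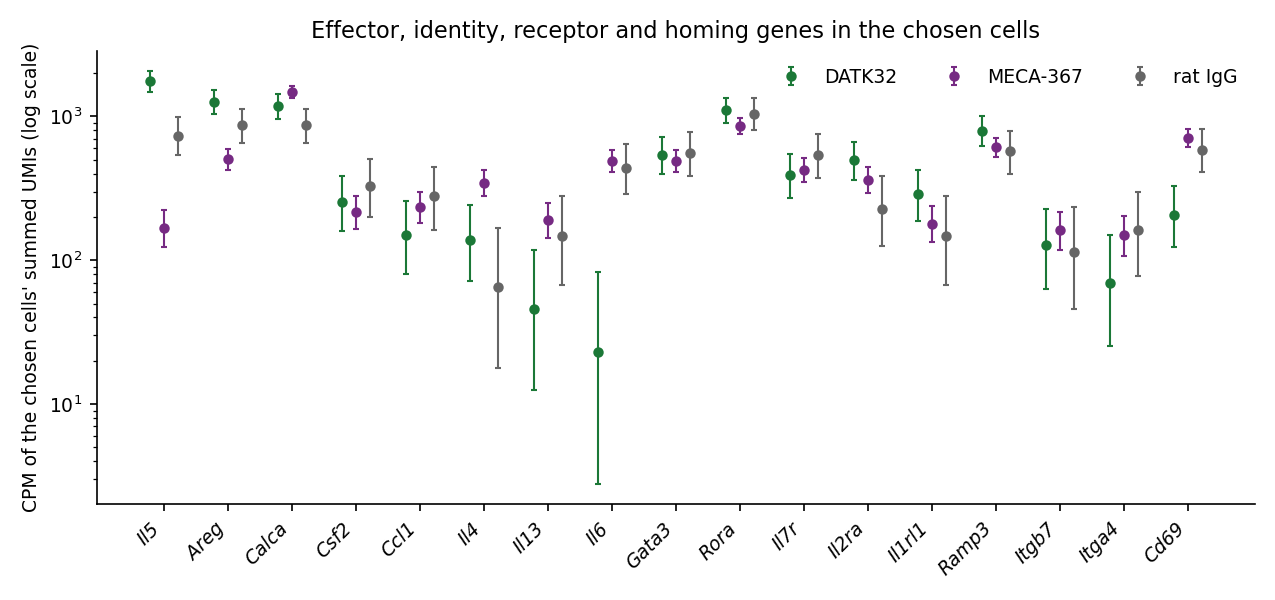
CPM of the summed UMIs of the chosen cells (log-scaled y axis) for effector, identity, receptor and homing genes in DATK32, MECA-367 and rat IgG; points are levels and bars exact 95% Poisson intervals for counting error. Il5 and Areg are lowest in MECA-367, Cd69 is lowest in DATK32, and the Gata3 bars of the 3 libraries overlap.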

How the data were processed

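The deposited files were 3 matrices of raw UMI counts per gene and barcode, 1 per antibody, from viable CD45+ lamina propria cells sorted by flow cytometry, built with the 10x 3′ v3.1 kit and sequenced in 1 lane, per the labels' protocols. The submitters' processing notes name Cell Ranger 6.0.2 and mm10; the authors' annotation, cell filter and strand setting are not given in the sources used here. The matrices list 32285 genes. The chosen cells and the gene lists were picked with earlier results of these data known.

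From the deposited counts, cells were kept as stated, the rule was applied, and counts were summed over chosen cells per library and scaled to CPM, UMIs per 1000000 (Python 3.11.15, numpy 2.4.6, scipy 1.17.1, pandas 2.3.3). Shares have Clopper-Pearson intervals, levels exact Poisson intervals and ratios exact conditional binomial intervals, at 95%. Log2 ratios were computed after adding 1 count to each library. No p-value was computed, since each antibody has 1 library, and the 3 libraries were not pooled for any comparison of antibodies. A gene was measured with at least 30 counts over both libraries. The calling step was tested on simulated Poisson counts with set folds. These counts have no spread between cells, so the test cannot show how calls behave where few cells hold most UMIs.

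Named genes were the 5 highest and 5 lowest log2 ratios of each comparison among genes past the fold, with a UMI in at least 10% of the chosen cells of the higher library and a level there at least that of its other cells, and the 12 highest against the other cells, of which 1 is not reported here. Clone-named genes and those of mitochondria, ribosomes, haemoglobin, immunoglobulins and T cell receptor segments were not eligible. Members of the gene lists were also named. Alternatives varied the rule, the filters, the scaling, the added count and the cells left out. Leaving out cells with basophil or mast cell markers, and leaving out the highest cell of each gene, were chosen after seeing the data.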

Additional observations from a re-analysis of the deposited data

How the results depend on the processing

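No paired analysis was possible because each antibody has 1 library. The share of chosen cells in MECA-367 over rat IgG and in DATK32 over MECA-367 stayed past the fold under all 13 alternatives, with log2 ratios from 0.86 to 2.38 and from -1.70 to -0.76. The DATK32 over rat IgG ratio stayed short of it under all 13 (0.01 to 0.87). With 1 rule UMI sufficient, the ratio was 0.86 for MECA-367 over rat IgG and -0.76 for DATK32 over MECA-367, and as a share of lymphocytes it was 0.88 and -0.87. Counts of genes moved more, in part with the number measured. Without cells of another lineage they were 11 higher and 12 lower of 264 measured for DATK32 against rat IgG, 19 and 16 of 481 for MECA-367 against rat IgG, and 32 and 42 of 557 for DATK32 against MECA-367. With at least 10 counts, 43 genes were lower in DATK32 and 77 in MECA-367 against rat IgG, and with at least 60, 28 were lower in MECA-367. With 3 rule UMIs required, 26 were higher in DATK32 and 63 in MECA-367 against rat IgG. Scaling by the median ratio gave 47 higher and 109 lower for DATK32 against MECA-367, and leaving out cells with a basophil or mast cell marker gave 39 lower. Il5 kept its direction in each comparison under all 8 of its alternatives, with log2 ratios of 0.62 to 1.36, -2.79 to -1.59 and 2.70 to 3.78. All 8 still used cells chosen with Il5 in the rule, so they cannot show what the choice itself did. Over all kept cells, Il5 in MECA-367 was 0.799 times that of rat IgG (0.541 to 1.17), which was not past the fold. Of 495 gene values under alternatives, 15 changed sign. With 3 rule UMIs, Ifi27l2a was -0.83 in DATK32 over rat IgG and -1.04 in DATK32 over MECA-367, and Slpi was 3.69 in DATK32 and 2.57 in MECA-367 over rat IgG. Without the highest cell, Slpi was 0.36 in MECA-367 over rat IgG. Without another lineage, MECA-367 over rat IgG was -1.42 for Fcer1g, -0.68 for Isg15, 0.28 for Tubb5 and -0.28 for Tyrobp, and DATK32 over MECA-367 was 0.44 for Cd274. Without basophil or mast cell markers, Isg15 was -0.078 in MECA-367 over rat IgG, and DATK32 over MECA-367 was 0.25 for Cd274, 1.37 for Ccl5 and 0.37 for Il4. With the mean of per-cell CPM, H2afz was -0.19 in DATK32 over MECA-367. The cause of these changes was not tested beyond the cells each alternative leaves out. The low number of cells, 40 to 124 a library, limits every value.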

Other observations

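The chosen cells can be listed by rule gene, in overlapping groups over the 3 libraries together, with no test of a difference. Of the 111 cells with Calca (24 DATK32, 68 MECA-367, 19 rat IgG), 82.0% held Rora, 66.7% Il7r and 64.9% Gata3. Of the 41 with Il5 (14 DATK32, 15 MECA-367, 12 rat IgG), 73.2% held Gata3 and 61.0% Calca. The 28 with Il13 numbered 4 in DATK32, 18 in MECA-367 and 6 in rat IgG. In 6 cells, all of MECA-367, Il13 was the only rule gene, and 5 of them held Il4, 5 held Hdc and none held Il7r.

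Mki67, a gene of dividing cells, had 3 UMIs in DATK32, 6 in MECA-367 and 3 in rat IgG in the chosen cells. Arg1, which encodes the arginase that ILC2s are known to express, was at 138, 91.6 and 65.3 CPM in the chosen cells of DATK32, MECA-367 and rat IgG, and was past the fold upward against T cells in all 3 libraries.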
